A study of Mus musculus with 12 samples.

Results

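Ribosome biogenesis is the assembly of ribosomes in the nucleolus, and 41 mouse genes of this process and of related RNA work were followed here in MYCN-driven neuroendocrine tumors. The genes were listed by name as a module known from other systems to respond to MYC proteins, with no threshold on a measured value. Each gene was read from 1 probe set, that which carries a single symbol in the platform annotation and has the highest mean over the 12 tumors. By this rule 40 of the 41 genes were measured, among 18193 genes in all. Mrto4, a large subunit assembly factor, lay only on a probe set shared with other symbols and was given no value.

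The samples were 9 pancreatic tumors and 3 pituitary tumors, with 1 array per tumor, and all were untreated tumors of LSL-MYCN;hGFAP-Cre mice. In these double transgenic mice a stop cassette ahead of a human MYCN transgene is removed by Cre recombinase, which is driven by the human GFAP promoter and so acts in GFAP-positive cells. The mice had a mixed genetic background that includes FvB and B6, and the ages of the animals behind each array are not given in the sources used here. In the labels the pituitary tumors have the tissue brain, and the study places them at the pituitary gland. Tumors carry the numbers 1 to 12 of the labels, with pituitary tumors 6, 7 and 8. Some mice had a tumor at each site, and the labels do not tie arrays to mice, so that arrays may share an animal and the p-values treat them as separate. All samples carry the transgene, and arrays without it were not analysed here, so the response of these genes to MYCN was not tested.

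Ribosome assembly starts when RNA polymerase I copies the rDNA repeats into a long precursor RNA. Small nucleolar RNPs, helicases, nucleases and chaperones modify, cut and fold this precursor, and they build it into a small and a large subunit that leave the nucleus separately. MYC proteins, paired with MAX, bind the E-box CACGTG, and many genes of ribosome assembly are textbook MYC targets whose output sets how fast a cell can grow.

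The E-box was searched on both strands in RefSeq promoter windows (build GRCm38.p6) that run from 250 bases before to 50 bases after an annotated transcription start. A window was found for 35 of the 41 genes, and 11 of them (31.4%) held CACGTG. The share was 17.2% of 99 other ribosome assembly genes, 10.5% of 13272 protein-coding genes with a probe set and 8.09% of all 27025 genes with a window. In the 250 bases before the start alone the motif lay in 4 of the 35 genes (11.4%), against 8.94% of the protein-coding genes with a probe set. Most matches of these genes thus lay just after the start, and 10 of the 11 genes held the motif within 60 bases of it. For 9 genes 30 bases around the match are shown, and for Nop2 and Imp4 the 250 bases before the start, since their matches lay farthest upstream. Sequences run 5′ to 3′ on the strand of the gene, and capitals mark the E-box.
Mybbp1a (chr11:72441347-72441376, + strand): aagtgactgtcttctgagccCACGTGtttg
Wdr43 (chr17:71616220-71616249, + strand): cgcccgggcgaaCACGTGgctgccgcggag
Utp20 (chr10:88826765-88826794, - strand): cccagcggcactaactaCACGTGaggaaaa
Pes1 (chr11:3963965-3963994, + strand): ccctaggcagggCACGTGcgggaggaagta
Grwd1 (chr7:45830740-45830769, - strand): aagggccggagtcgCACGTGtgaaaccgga
Exosc5 (chr7:25659097-25659126, + strand): taaacgctgagcCACGTGctagggccaact
Prmt3 (chr7:49778333-49778362, + strand): gccccctacgccCACGTGacccggaagcgc
Ipo4 (chr14:55635653-55635682, - strand): tgtcggagtctcCACGTGccgatcctcccc
Pus1 (chr5:110780576-110780605, - strand): tccgccttcgtgCACGTGgtcagcttcggg
Nop2 (chr6:125131633-125131882, + strand): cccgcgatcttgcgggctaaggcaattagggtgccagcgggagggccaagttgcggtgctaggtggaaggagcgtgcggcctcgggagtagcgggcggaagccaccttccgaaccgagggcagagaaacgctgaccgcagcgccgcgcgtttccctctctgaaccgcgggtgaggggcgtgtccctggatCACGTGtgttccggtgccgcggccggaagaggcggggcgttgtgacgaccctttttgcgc
Imp4 (chr1:34439579-34439828, + strand): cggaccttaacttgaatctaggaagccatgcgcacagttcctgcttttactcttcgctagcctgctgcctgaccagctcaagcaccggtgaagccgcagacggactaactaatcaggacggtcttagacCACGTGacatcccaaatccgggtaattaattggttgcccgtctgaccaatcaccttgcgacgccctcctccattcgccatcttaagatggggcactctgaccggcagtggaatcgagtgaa

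**Figure D1:**
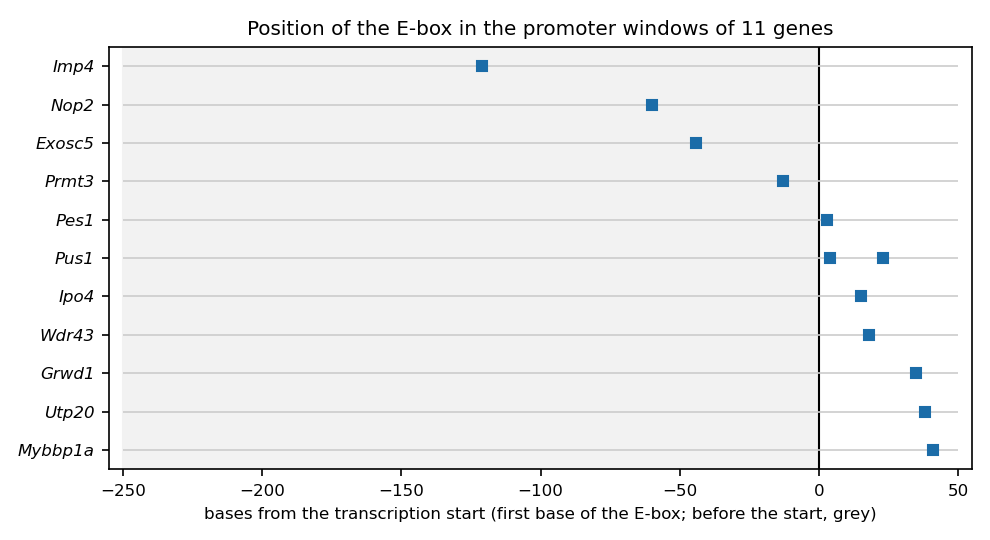
Position of the E-box in the promoter windows of 11 ribosome biogenesis genes; the horizontal axis gives the distance of its first base from the annotated start in bases, each row is a gene and each square a match. The match began at base -121 in Imp4 and at base -60 in Nop2; Pus1 has 2 annotated starts, so its match appears at 4 and 23 bases after them.

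The genes differed in where the match lay. Imp4, Nop2, Exosc5 and Prmt3 held it before the start, and the other 7 genes after it, the farthest in Mybbp1a at base 41. A match is a string of letters and says nothing of binding in these tumors. The 250 bases before the start of Nop2 were 67.6% G or C and those of Imp4 53.6%. Between the tumor sites, the 11 genes with the motif had a median difference (pancreatic minus pituitary) of 0.29 on the log2 scale, with 10 above 0, and the 23 measured genes with a window and no motif had a median of 0.41, with 20 above 0. The median difference was thus no larger for the genes with the motif.

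Several arrays stood apart before any of the 40 genes was considered. Pancreatic tumor 2 had low neuroendocrine transcripts, with a Chga (chromogranin A) signal of 9.58, below the 11.78 to 13.95 of the other pancreatic tumors. Its score over 7 neuroendocrine genes, the mean log2 signal after each gene is centred on its mean over 12 tumors, was -3.42, against -0.24 to 0.92 in the other pancreatic tumors. Its score over 8 endocrine pancreas genes, -0.96, was the lowest of the pancreatic tumors and lay above the pituitary tumors (-3.80 to -3.25). Transcripts of hepatocytes were high in pancreatic tumors 2, 3 and 4 (6-gene scores of 5.61, 3.19 and 3.45, at most 0.51 in the other pancreatic tumors), and those of acinar cells in 3 and 4 (9-gene scores of 4.28 and 3.42, at most 1.67 in the other pancreatic tumors). Astrocyte, oligodendrocyte and neuron transcripts were high in pituitary tumors 6 and 8 (7-gene astrocyte scores of 3.77 and 3.58). The astrocyte score was lower in pituitary tumor 7 (0.27, with -1.51 to 0.77 in pancreatic tumors). For some astrocyte and neuron genes, such as Slc1a2 (9.26) and Slc17a6 (8.53), tumor 7 still lay above all pancreatic tumors, and for others it did not. By limma, a linear model across all probe sets with moderated variances, 9 of 9 anterior pituitary markers were lower and 6 of 8 endocrine pancreas markers higher in pancreatic tumors at an adjusted p under 0.05. Pancreatic tumor 5 had the widest gap between the 3′ and 5′ control probe sets of actin (3.48 log2 units, 0.57 to 2.20 in the other 11 arrays), a sign of RNA quality, and pancreatic tumors 10, 11 and 12 the narrowest (0.57 to 0.87), with mean array signals of 5.97 to 5.98 against 6.06 to 6.10 in the other 9. The part these differences have in the results below was not tested.

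Ribosome biogenesis genes were well expressed in all tumors. In each of the 12 tumors all 40 measured genes gave a signal above the array's median, which held for 52.2% of the 18193 genes, and 26 of the 40 lay above the 75th percentile in each. Ranked among all probe sets of an array, the median percentile of the 40 genes was 84.9. Each gene was read from its probe set with the highest mean, which raises such ranks for any gene with several probe sets. The share of all genes above the 75th percentile and their median rank were not counted. Npm1, the nucleolar chaperone nucleophosmin, and Ncl, the rRNA-binding nucleolin, had the strongest signals, at a mean of 12.93 and 11.94 over the 12 tumors. Rrp12, a factor for subunit export, and Tcof1, treacle of the rDNA transcription machinery, had the weakest, at 6.56 and 7.04. Signals of different probe sets are not amounts and are not compared as such.

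**Figure D2:**
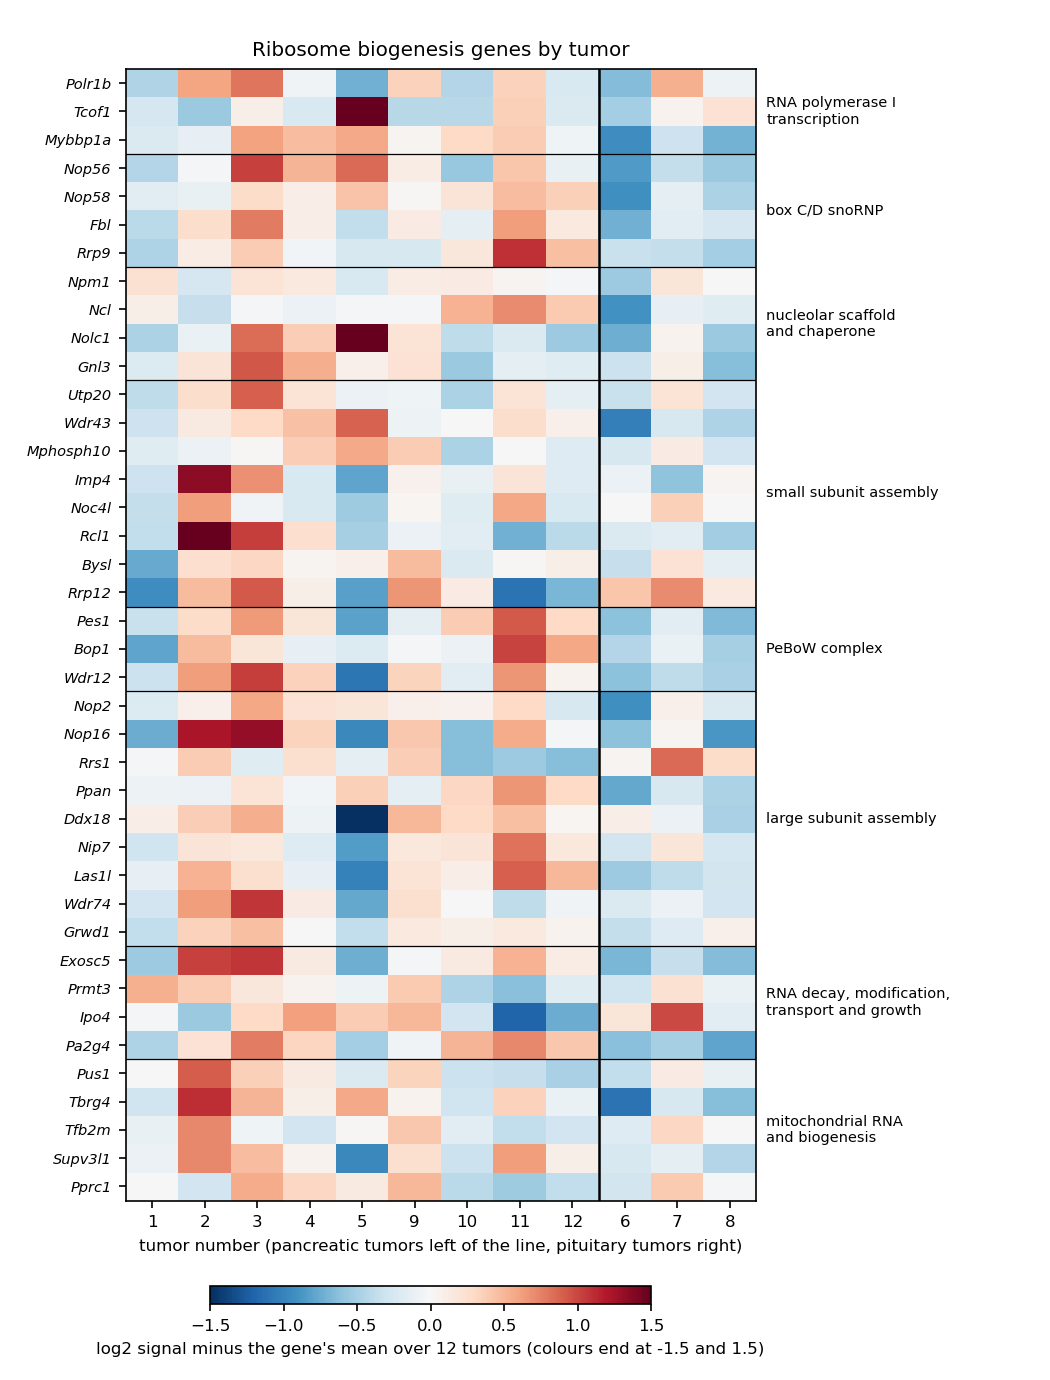
Log2 signal of the 40 measured genes (rows, grouped by role) in each tumor (columns, pancreatic left of the line and pituitary right of it) after subtraction of the gene's mean over the 12 tumors. Pancreatic tumor 3 is red in most rows, pituitary tumor 6 is blue in most rows, and tumor 5 holds both deep red (Tcof1, Nolc1) and the deepest blue (Ddx18).

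The comparison of the sites asked whether tumors of the same oncogene differ in this gene set by organ. Signals leaned to the pancreatic tumors, by little. The difference between the group means was above 0 for 34 of the 40 genes and below 0 for 6, and 53.1% of all genes lay above 0. The median difference was 0.38 on the log2 scale, a 1.30-fold higher signal in pancreatic tumors, against 0.04 over all genes. With limma and Benjamini-Hochberg adjustment over all 45037 probe sets, 1 of the 40 genes was higher in pancreatic tumors and 0 were lower, where 1.63% and 4.29% of all genes were called in these directions. At an unadjusted p under 0.05 there were 9 higher genes and 0 lower ones (9.53% and 14.0% of all genes). Every pancreatic tumor lay above every pituitary tumor for 2 genes, Mybbp1a and Ppan (4.21% of all genes), and below for 0 (5.21%). The lean was smaller without pancreatic tumor 2 (median difference 0.24), without 2, 3 and 4 (0.18) and with pituitary tumor 7 alone as the pituitary group (0.14). It was also smaller when the probe sets of each gene were averaged (0.24, against 0.05 over all genes). Other settings made the lean larger, among them quantile normalization (0.52, against 0.08 over all genes). It was 0.46 without pancreatic tumors 5 and 10 to 12 and 0.45 without pituitary tumor 7.

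**Figure D3:**
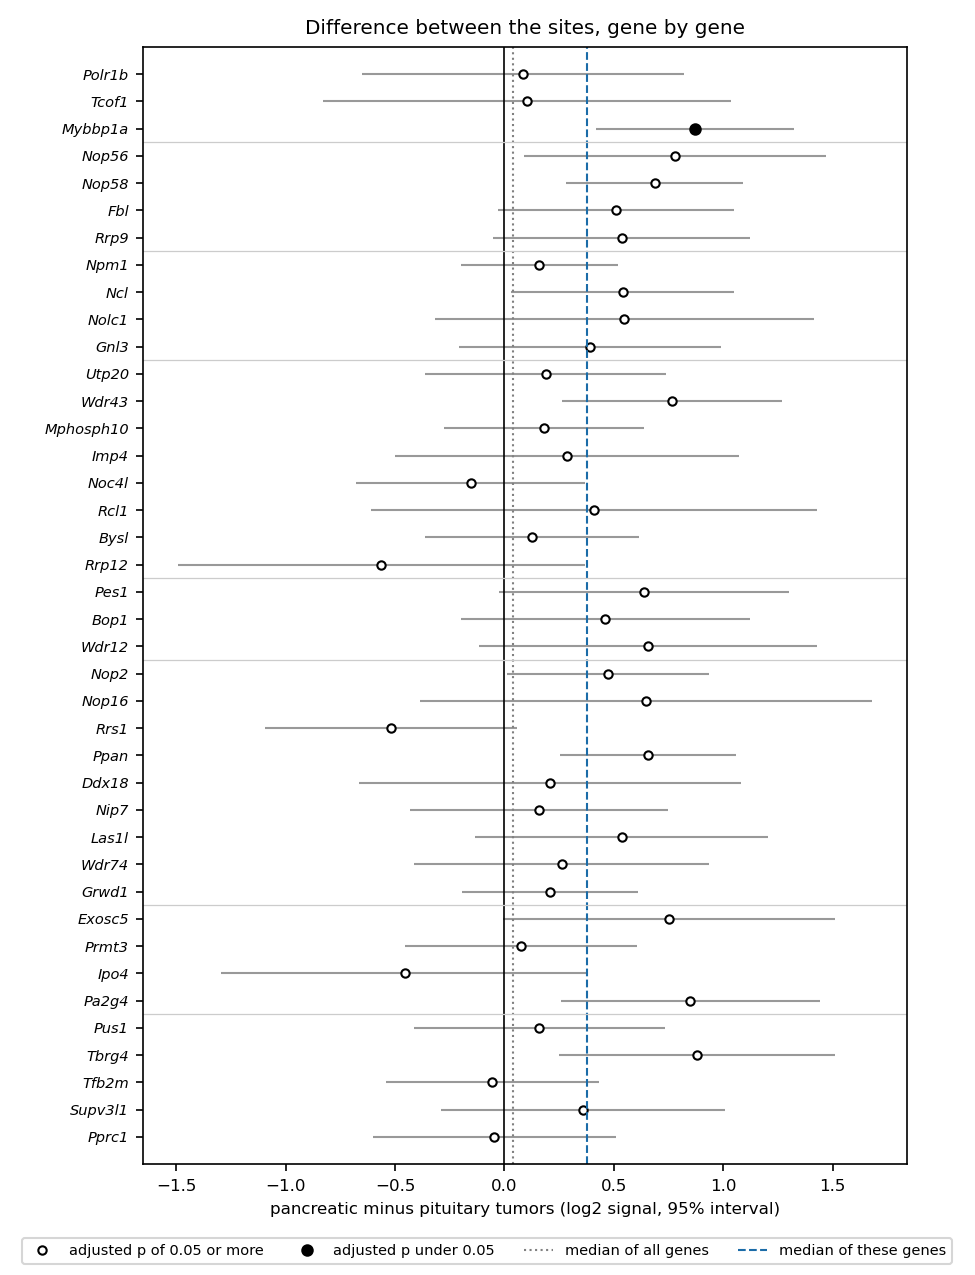
Difference between the sites for each of the 40 genes (pancreatic minus pituitary mean, log2 signal), with the unadjusted 95% interval of limma; thin lines part the role groups. The filled point is Mybbp1a, the only gene with an adjusted p under 0.05, and 9 intervals lay wholly above 0 while none lay wholly below it.

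The genes of RNA polymerase I transcription held the single call. Mybbp1a encodes a nucleolar protein found with polymerase I and with factors of rRNA processing. Its signal was 10.57 at the lowest, 11.08 at the median and 11.39 at the highest in pancreatic tumors, and 9.85, 10.47 and 10.07 in pituitary tumors 6, 7 and 8. All pancreatic tumors thus lay above all pituitary tumors; the lowest pancreatic tumor and pituitary tumor 7 were 10.57 and 10.47. The difference was 0.87 ± 0.208 (SE), 1.83-fold, with an adjusted p of 0.035 by limma. The call was lost when pituitary tumor 6 (adjusted p = 0.2 by limma) or 8 (0.154) was left out, or any of pancreatic tumors 3, 4, 10 and 11 (0.0536 to 0.0622). A further probe set of the gene had a difference of 1.45 with an adjusted p of 0.15 by limma.

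Polr1b, the second-largest subunit of RNA polymerase I, behaved differently. Its signal was 6.87, 7.54 and 8.40 (lowest, median, highest) in pancreatic tumors and 6.94, 8.13 and 7.52 in pituitary tumors 6, 7 and 8. The groups overlapped throughout, the difference was 0.08 (95% interval -0.65 to 0.82), and its sign turned when pituitary tumor 6 was left out (-0.21). Tcof1 was 6.48, 6.81 and 8.92 in pancreatic tumors and 6.53, 7.09 and 7.26 in pituitary tumors 6, 7 and 8. Its highest value was that of pancreatic tumor 5 alone, and without it the difference of 0.10 became -0.13.

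Box C/D small nucleolar RNPs guide the 2′-O-methylation of rRNA, and all 4 of their genes had a difference above 0, at 0.78 for Nop56, 0.69 for Nop58, 0.51 for Fbl and 0.54 for Rrp9, and none passed the adjusted threshold. Nop58, a core scaffold protein, was 10.21, 10.57 and 10.85 in pancreatic tumors and 9.46, 10.23 and 9.91 in pituitary tumors 6, 7 and 8. A single pancreatic tumor, 1, lay below pituitary tumor 7, and the adjusted p was 0.0574 by limma. It came under 0.05 when pituitary tumor 7 (0.0274), pancreatic tumor 1 (0.048) or pancreatic tumor 2 (0.0431) was left out. Nop56, its partner in the scaffold, was 9.28, 9.96 and 10.87 in pancreatic tumors and 9.00, 9.50 and 9.29 in pituitary tumors. Here pancreatic tumors 1 and 10 lay within the pituitary range (adjusted p = 0.197 by limma).

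Among the nucleolar scaffold and chaperone genes all 4 differences lay above 0 and none passed. Npm1 had the smallest spread of the 40 genes among pancreatic tumors (SD 0.18), at 12.68, 13.05 and 13.16, with 12.39, 13.11 and 12.93 in pituitary tumors 6, 7 and 8. Apart from pituitary tumor 6 the values of both sites covered the same range, and the difference was 0.16 (95% interval -0.20 to 0.52; 0.34 with the mean of its probe sets). Ncl was 11.59, 11.93 and 12.65 in pancreatic tumors and 11.04, 11.82 and 11.76 in pituitary tumors. Its difference of 0.54 fell to 0.34 without pancreatic tumors 10, 11 and 12, which held its highest values. Nolc1, a chaperone of small nucleolar RNPs, and Gnl3, the GTPase nucleostemin, had differences of 0.55 and 0.39.

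In small subunit assembly 6 of 8 differences lay above 0, and none was called. Wdr43, a subunit of the early U3 complex, was 9.15, 9.60 and 10.34 in pancreatic tumors and 8.44, 9.22 and 9.00 in pituitary tumors 6, 7 and 8. Pancreatic tumor 1 alone fell under pituitary tumor 7, and the difference was 0.77 ± 0.231 (SE) with an adjusted p of 0.0857 by limma. Rrp12 lay at the other end, with 5.46, 6.66 and 7.48 in pancreatic tumors and 6.98, 7.27 and 6.71 in pituitary tumors. Its pancreatic values ran from far below to above the pituitary ones, and the difference of -0.56 was the lowest of the 40 (95% interval -1.49 to 0.37, adjusted p = 0.502 by limma). Noc4l, needed for small subunit maturation, was 6.88, 7.23 and 8.04 in pancreatic tumors and 7.40, 7.77 and 7.41 in pituitary tumors. Its pancreatic values spanned the pituitary ones, and the difference was -0.15. Utp20, a large scaffold of the small subunit precursor, was 7.79, 8.20 and 9.17 in pancreatic tumors and 7.93, 8.48 and 7.98 in pituitary tumors, a difference of 0.19.

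Rcl1, a protein of rRNA precursor cleavage, varied most of all 40 genes among the pancreatic tumors (SD 0.84). Its signal was 7.62, 8.19 and 10.22 in pancreatic tumors and 8.13, 8.17 and 7.82 in pituitary tumors 6, 7 and 8. The 3 highest values, 10.22, 9.39 and 8.60, were those of pancreatic tumors 2, 3 and 4, which were also the tumors with high hepatocyte transcripts. Without these tumors the difference of 0.41 became -0.07. Whether more cells of a type or more RNA per cell lie behind such a high value cannot be told apart in bulk tissue.

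The PeBoW complex of Pes1, Bop1 and Wdr12 acts in the maturation of the large subunit, and its 3 differences were 0.64, 0.46 and 0.66 on the probe sets with the highest signal. A weaker probe set of each gene went the other way, with differences of -0.59, -0.30 and -0.44. That of Bop1 was above the array median in 0 tumors, as was a further probe set of Wdr12 with a difference of 0.11. With the mean of all probe sets the difference of Pes1 was 0.0244. Pes1 was 8.32, 9.40 and 10.04 in pancreatic tumors and 8.51, 8.96 and 8.45 in pituitary tumors 6, 7 and 8. Pancreatic tumor 5 lay below all pituitary tumors and tumor 1 within their range, so the groups overlapped (adjusted p = 0.274 by limma). Wdr12 and Bop1 were likewise not called (adjusted p = 0.336 and 0.435 by limma).

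Of the 9 measured genes of large subunit assembly, 8 had a difference above 0 and none was called. Ppan, a factor of the early large subunit precursor, was 8.27, 8.63 and 9.08 in pancreatic tumors and 7.65, 8.18 and 7.94 in pituitary tumors 6, 7 and 8. The groups did not overlap, although the adjusted p for the difference of 0.66 ± 0.185 (SE) was 0.0665 by limma. Nop2, the methyltransferase of the large rRNA whose promoter is shown above, was 8.33, 8.65 and 9.15 in pancreatic tumors and 7.65, 8.64 and 8.35 in pituitary tumors. Pituitary tumor 6 stood lowest and tumor 7 level with the pancreatic median, and the difference of 0.47 shrank to 0.04 against tumor 7 alone.

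Nop16, a nucleolar protein of the large subunit precursor, was 7.68, 8.99 and 9.97 in pancreatic tumors and 8.04, 8.69 and 7.77 in pituitary tumors. The spread within the pancreas (SD 0.83) exceeded the difference of 0.65. Rrs1, which helps bring the 5S RNP into the large subunit, had a difference below 0, with 8.96, 9.47 and 9.98 in pancreatic tumors and 9.64, 10.45 and 9.87 in pituitary tumors. Its difference was -0.52 (95% interval -1.10 to 0.06, adjusted p = 0.31 by limma). Only pituitary tumor 7 lay above all pancreatic tumors. Another well-expressed probe set of Rrs1 had means of 9.22 at both sites, and the mean of the probe sets gave -0.26. Ddx18, a DEAD-box helicase, was 6.97, 9.02 and 9.26 in pancreatic tumors and 8.82, 8.63 and 8.23 in pituitary tumors, with its lowest value in pancreatic tumor 5 and a difference of 0.21.

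In the group of RNA decay, modification, transport and growth, 3 of 4 differences lay above 0. Pa2g4, a growth-regulating nucleolar protein also called Ebp1, was 10.08, 10.91 and 11.36 in pancreatic tumors and 9.97, 10.09 and 9.80 in pituitary tumors 6, 7 and 8. Pancreatic tumor 5 alone lay within the pituitary range, by a narrow margin, and the difference was 0.85 ± 0.272 (SE), 1.80-fold (adjusted p = 0.103 by limma). Without pancreatic tumor 5 it was 0.94 with an adjusted p of 0.0484 by limma. Exosc5, a core subunit of the RNA exosome, was 8.04, 8.90 and 9.84 in pancreatic tumors and 8.08, 8.42 and 8.12 in pituitary tumors, a difference of 0.75 (adjusted p = 0.261 by limma). Ipo4, a nuclear import receptor, was 9.47, 10.64 and 11.29 in pancreatic tumors and 10.86, 11.66 and 10.51 in pituitary tumors. Its difference was -0.46 on this probe set and 0.09 on another, so the probe sets disagreed in sign, and their mean gave -0.18. The same disagreement between well-expressed probe sets was seen for Ncl, Nolc1, Imp4 and Nip7.

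The 5 genes with mitochondrial or tRNA roles were split. Tbrg4, a regulator of mitochondrial RNA, had the largest difference of the 40 genes, 0.88 ± 0.29 (SE), 1.84-fold (adjusted p = 0.115 by limma). Its signal was 7.77, 8.16 and 9.18 in pancreatic tumors and 6.97, 7.84 and 7.44 in pituitary tumors 6, 7 and 8, and only pituitary tumor 7 reached into the pancreatic range. Pus1, a pseudouridine synthase, was 8.05, 8.54 and 9.44 in pancreatic tumors and 8.17, 8.66 and 8.42 in pituitary tumors, a difference of 0.16. Tfb2m, a mitochondrial transcription factor, was 9.26, 9.52 and 10.36 in pancreatic tumors and 9.45, 9.95 and 9.64 in pituitary tumors, a difference of -0.06. Supv3l1, a mitochondrial RNA helicase, and Pprc1, a coactivator of mitochondrial biogenesis, had differences of 0.36 and -0.05. None of the 5 was called.

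The pituitary group itself was uneven. Of the 3 pituitary tumors, tumor 7 had the highest signal for 34 of the 40 genes, and tumor 6 the lowest for 26. The same shares over all genes were not counted, so this order is not read as particular to the 40 genes. Tumors 6 and 8 were also those with the highest glial and neuronal scores. Set against tumor 7 alone, the pancreatic mean was above it for 25 of the 40 genes with a median difference of 0.14 (all genes, -0.01), and Mybbp1a differed by 0.53 (adjusted p = 0.985 by limma, in which the lone tumor is assumed to vary like the others).

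Other genes of ribosome assembly leaned the same way, to a smaller degree. There were 118 further genes of polymerase I, of small and large subunit assembly and of snoRNPs and the exosome. Of these 114 were measured, and 81 had a difference above 0 (53.1% of all genes). The median was 0.18, against 0.04 over all genes. None was called in either direction, where 1.63% of all genes were called higher and 4.29% lower. At an unadjusted p under 0.05 by limma, 16 were higher and 0 lower in pancreatic tumors (9.53% and 14.0% of all genes). The differences ran from -0.48 to 1.19. The lowest adjusted p was 0.0581 by limma, for Polr1c, a subunit shared by polymerases I and III, whose difference was 0.78.

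Taken as a mean over the 40 genes after centring, the signal was 0.08 ± 0.25 in pancreatic tumors (SD, n = 9) and -0.25 ± 0.24 in pituitary tumors (SD, n = 3). Pancreatic tumor 3 had the highest score, 0.51, followed by tumors 2 (0.34), 11 (0.20), 9 (0.16), 4 (0.13), 12 (-0.06), 10 (-0.11), 5 (-0.16) and 1 (-0.27). Pituitary tumors 7, 8 and 6 had scores of 0.01, -0.31 and -0.45. The sites overlapped, since pituitary tumor 7 lay above 4 pancreatic tumors. A score over 13 proliferation genes, measured on the same arrays, was 1.11 in pancreatic tumor 3, 0.82 in 11, 0.76 in 2, 0.47 in 9 and 0.46 in 4, so the same 5 pancreatic tumors led both scores. It was lowest in pancreatic tumor 5 (-1.06), and in pituitary tumor 7, which led the pituitary group for ribosome biogenesis, it was -0.74, the lowest of the 3. Mki67, the Ki-67 antigen of dividing cells, was 9.49 in pancreatic tumor 3 and 7.54 in pituitary tumor 7. Mouse Mycn lay between 6.45 and 7.14 in pancreatic tumors and at 6.17, 6.45 and 6.52 in pituitary tumors 6, 7 and 8, on a probe set designed for the mouse gene, and how far it reads the human transgene is not known.

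**Figure D4:**
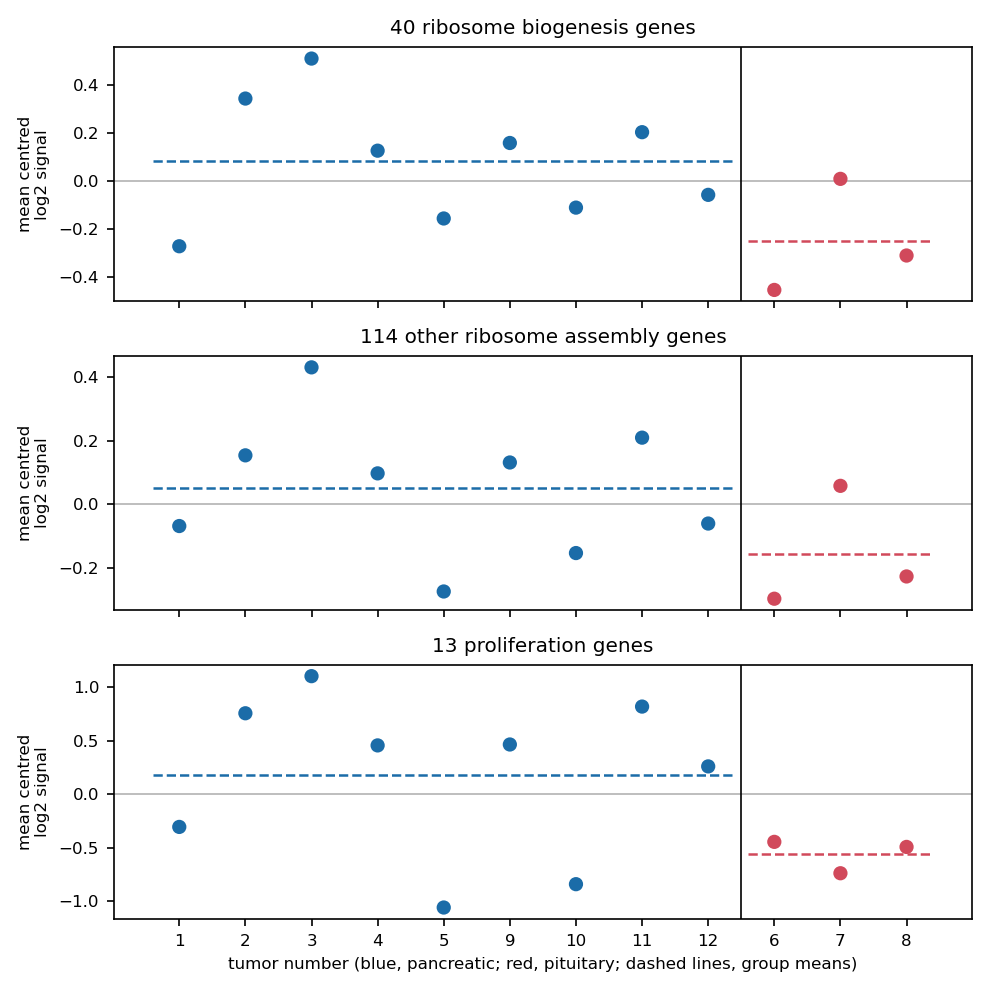
Mean centred log2 signal per tumor for the 40 ribosome biogenesis genes, 114 other ribosome assembly genes and 13 proliferation genes; points are tumors (blue, pancreatic; red, pituitary) and dashed lines group means. Pancreatic tumor 3 is highest in each panel, and pituitary tumor 7 lies highest of its group in the upper panels and lowest in the proliferation panel.

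Among the 9 pancreatic tumors the 40 genes varied about as much as all genes, and less than genes in the same range of mean signal. The median SD of the 40 genes was 0.46 (0.18 for Npm1 to 0.84 for Rcl1). It was 0.43 for all genes and 0.55 for the 9749 genes in the same range of mean signal. Of the 40, 16 had their highest signal of the 12 tumors in pancreatic tumor 3, 8 in 11 and 7 in 2. The shares of all genes that were highest in these tumors were not counted. The 40 genes tended to move together, with a mean Pearson's r of 0.23 over 780 gene pairs and 0.01 over all gene pairs. These values are descriptions, since the pairs share the same 9 arrays. Pairs of genes in the same range of mean signal were not compared, so the tendency is not read as particular to the 40 genes. The mean r was 0.30 without tumor 5, 0.27 without tumors 10, 11 and 12, and 0.15 without tumors 2, 3 and 4. Nop16 (r = 0.96 with the mean of the other genes), Polr1b (0.95), Grwd1 (0.89), Utp20 (0.89), Exosc5 (0.88), Fbl (0.88) and Wdr12 (0.86) followed the common level most closely over the 9 tumors. Fbl is the methyltransferase of box C/D RNPs, and Grwd1 a chaperone of a large subunit protein. Ncl (-0.33) and Tcof1 (-0.30) had negative values, and Ipo4 (-0.08), Ppan (-0.07) and Npm1 (-0.03) lay near 0. The value for Tcof1 includes pancreatic tumor 5, at 8.92 against 6.48 to 7.40 in the other pancreatic tumors. Its r without tumor 5 was not computed, so the negative sign may rest on that array.

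Pancreatic tumor 5, the array with the widest actin gap, set the extremes of several genes. It held the lowest pancreatic signal for 13 of the 40 genes (32.5%, against 21.6% of all genes) and the highest for 4 (10.0%, against 11.9%). On the probe sets used, the 4 highest were Tcof1, Nolc1, Wdr43 and Mphosph10, a component of the U3 RNP. By Dixon's ratio, the gap to the nearest tumor divided by the range, a single pancreatic tumor stood apart for 2 genes (16.2% of all genes), both times tumor 5. Tcof1 was 8.92 there and 6.48 to 7.40 in the other 8 pancreatic tumors, and Ddx18 was 6.97 there and 8.64 to 9.26 in the others. These extremes depended on the probe set. Of the 17 genes at an extreme in tumor 5, 9 had another well-expressed probe set, which gave the same extreme for 2 (Tcof1, Imp4) and the opposite one for 2. For Nolc1 another probe set was lowest in tumor 5 (7.72, against 8.03 to 9.24), and for Pa2g4 another was highest (11.45, against 9.50 to 11.05). Wdr12 had a weaker probe set that was highest there (8.77, against 4.52 to 7.02). For Tcof1 a further probe set also stood highest in tumor 5 (8.01, against 5.68 to 7.26), and another did not (7.02, within 6.20 to 7.70). For Ddx18 another well-expressed probe set did not set tumor 5 apart (8.11, within 8.01 to 8.77).

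**Figure D5:**
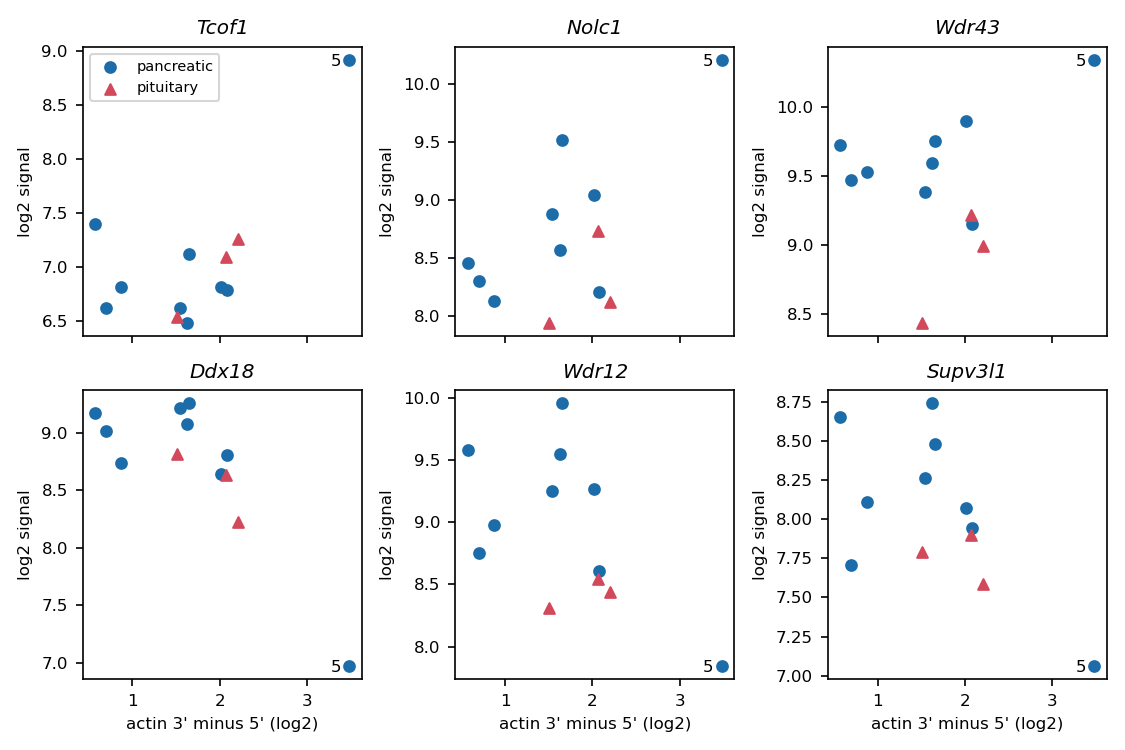
Log2 signal of 6 ribosome biogenesis genes against the difference between the 3′ and 5′ actin probe sets (log2), for pancreatic tumors (circles) and pituitary tumors (triangles). Pancreatic tumor 5, numbered, lies at the right at 3.48 and is the highest point for Tcof1, Nolc1 and Wdr43 and the lowest for Ddx18, Wdr12 and Supv3l1 on the probe sets plotted; other probe sets of Nolc1 and Wdr12 put it at the opposite end.

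Pancreatic tumors 10, 11 and 12, the arrays with the narrowest actin gap, lay above the other 6 pancreatic tumors for 1 of the 40 genes, Ncl (5.86% of all genes), and below them for 4 (7.59%). These 4 were Rrs1, Pus1, Pprc1 and Prmt3, the methyltransferase of a small subunit protein. The mean of tumors 10 to 12 minus that of the other 6 was 0.61 for Ncl, -0.72 for Rrs1, -0.67 for Prmt3, -0.64 for Pprc1 and -0.63 for Pus1. None of these arrays is of a pituitary tumor, so they allow no comparison of the sites on their own.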

How the data were processed

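Total RNA of 9 pancreatic and 3 pituitary tumors was hybridized to Affymetrix MG-430_2.0 arrays, 1 per tumor. The authors deposited normalized log2 signals, 1 per probe set. Their notes name Partek, with no version, and their methods also RMA; which of them gave these values is not stated, and no further normalization was applied. Of 45101 probe sets, 64 controls were left out. Of the other 45037, 34945 carry 1 symbol, 932 several and 9160 none in the annotation used; 34741 matched RefSeq by Entrez identifier and 0 symbols changed. The number of arrays limits the precision.

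The sites were compared with lmFit and eBayes of limma 3.58.1 (R 4.3.3) on all 45037 probe sets, as pancreatic minus pituitary, with Benjamini-Hochberg adjusted p-values called under 0.05. Dixon's ratio for 9 tumors was read against 0.493. Scores, correlations and promoter motifs are descriptions. Tables and plots were made in Python 3.11.15 with pandas 2.3.3, numpy 2.4.6, matplotlib 3.10.9 and scipy 1.17.1.

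The genes, lists and rules were chosen with earlier results of these data known. Any of the 41 genes could be named. Values by group were given for genes past the threshold, the 5 largest and 5 lowest differences, the 4 largest and 4 smallest SDs, the 2 highest and 2 lowest means, genes with a tumor apart, and the first or second gene of each role. Alternatives were other scalings, variance models, filters and probe set choices, a shorter promoter and tumors left out, of which leaving out pancreatic tumors 2, 3 and 4, or 5 and 10 to 12, was chosen after seeing the data.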

Additional observations from a re-analysis of the deposited data

Results flagged for a closer look

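A single pancreatic tumor stood far from the other pancreatic tumors for 2 of the 40 genes, where chance alone marks about 1 in 20 groups and 16.2% of all genes on these arrays were marked. The gap divided by the range was 0.623 for Tcof1, whose highest value, 8.92, was that of pancreatic tumor 5. It was 0.73 for Ddx18, whose lowest value, 6.97, came from the same tumor. Tumor 5 also had the widest gap between the 3′ and 5′ probe sets of actin (3.48) and of Gapdh (2.29), and the part of this gap in either value was not tested.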

How the results depend on the processing

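Of 24 genes followed through 26 settings, the first included, 16 kept the sign of their difference in all of them. The count of genes higher in pancreatic tumors, 1 at first, was 6 with array weights (Mybbp1a, Nop58, Wdr43, Ppan, Pa2g4 and Tbrg4). With these weights 5.28% of all genes were called higher in place of 1.63%. The count was 2 with the mean of all probe sets (2.22%) and 0 without moderation of the variance (1.21% of all genes). It was also 0 without pancreatic tumors 10 to 12 (0.698%), 2 to 4 (1.89%), 3 and 4 (0.929%), or 5 and 10 to 12 (0.66%). Leaving out 1 tumor gave 0 to 2 (0.632% to 2.76% of all genes). The adjusted p of Mybbp1a (limma) ran from 0.00614 to 0.985. Genes without overlap, higher, numbered 6 without pancreatic tumors 5 and 10 to 12 (8.66% of all genes) and 2 to 7 with 1 tumor left out (7 without pituitary tumor 7, 9.25% of all genes; 5 without pancreatic tumor 1, 5.00%, or 5, 5.78%); lower, 2 without pituitary tumors 6 and 8 (15.3%). Without pituitary tumors 6 and 8 the difference in mean score was 0.0737 in place of 0.33. For the other ribosome assembly genes, 0 calls became 12 with array weights (the same 5.28% of all genes) and 1 with the mean of probe sets (2.22%). They became 1 after quantile normalization (2.04%) and 0 to 2 with 1 tumor left out (0.632% to 2.76%). The motif count of 11 became 4 in the 250 bases before the start.

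Signs turned without pituitary tumors 6 and 8 for Polr1b (-0.51), Npm1 (-0.14), Utp20 (-0.16), Pus1 (-0.0819) and Tcof1 (-0.0298); without pancreatic tumors 2 to 4 for Polr1b (-0.13), Rcl1 (-0.0685), Pus1 (-0.052) and Utp20 (-0.0166); without 3 and 4 for Polr1b (-0.0179); without 5 and 10 to 12 for Tcof1 (-0.20) and Tfb2m (0.0909); without 10 to 12 for Tfb2m (0.0724); and after quantile normalization for Tfb2m (0.0515) and Noc4l (0.00602). With 1 tumor left out, Polr1b ran from -0.21 to 0.38, Tcof1 from -0.13 to 0.25, Npm1 from -0.0498 to 0.31 and Tfb2m from -0.17 to 0.0791. The causes were not tested. The median difference of the 40 genes ran from 0.14 to 0.52. No paired analysis was possible because the labels do not tie arrays to mice.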
